A study of Mus musculus with 54 samples.

Results

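Complex I (NADH:ubiquinone oxidoreductase) is the largest enzyme of the mitochondrial respiratory chain, and most of its subunits carry gene names that begin with Nduf. Every gene of the deposited mouse expression table with such a name was taken, which gave 45 of the 45802 genes listed. Of these, 38 are named as subunits (Ndufa, Ndufb, Ndufc, Ndufs, Ndufv and Ndufab) and 7 as assembly factors (Ndufaf). The names were taken as they stand, although Ndufa4 is now known as a subunit of cytochrome c oxidase (complex IV), and Ndufa4l2 is its close relative. The level of a gene was given by the authors as RPKM (reads scaled to the length of the gene model and to the depth of the library), so levels can be compared between genes.

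Complex I has an L shape. Its peripheral arm takes electrons from NADH through a flavin and a chain of iron-sulfur clusters to ubiquinone, and its membrane arm pumps protons. The core subunits carry out these steps, the accessory subunits surround them, and assembly factors join the modules without staying in the finished enzyme. The core subunits of the membrane arm are made by the ribosomes of the mitochondrion itself, all others are made in the cytosol and imported. Translation inside mitochondria is a known target of argyrin C (Arg C) and of linezolid, an antibiotic, and activated T cells enlarge their respiratory chain when they start to divide.

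The cells were CD4+ CD25- T cells of C57BL/6 mice, taken from spleen and lymph nodes at a purity of about 90%. They were cultured for 96 h under conditions that give T helper 17 (Th17) cells, with antibodies to CD3e, CD28, interferon-γ and IL-4 and with TGF-β1, IL-6 and IL-1β in all groups. The 3 groups received the vehicle DMSO, Arg C (P2A7; 60 mM, the unit as labelled) or linezolid (100 µM). On day 4, live CD4+ cells were separated by how far a division dye had been diluted, into cycle 2 (1 division), cycle 3 (2 divisions) and cycle 4 (3 or more divisions). The 18 combinations of 3 drugs, 3 cycles and 2 experiments were each sequenced as 3 technical replicates, 54 libraries in all, which were averaged to 18 samples of 24268987 to 36910109 reads. Each drug thus had n = 6 samples, but its 3 cycles in 1 experiment are sorted fractions of treated cells, so that a drug has 2 independent units and p-values over all cycles can be too small.

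As a check of the labelled cell type, Il17a, the cytokine that gives Th17 cells their name, was at 14.9 to 64.5 RPKM in DMSO samples, 1.72 to 5.45 with Arg C and 1.91 to 7.28 with linezolid. Cd4 was at 209.0 to 294.0 RPKM in all samples. Summed over 4 B-cell markers the level was 0.658 to 3.43 RPKM in DMSO samples, 0.209 to 0.652 with Arg C and 0.31 to 2.02 with linezolid. Over 2 CD8 T-cell markers it was 5.69 to 9.54, 4.24 to 6.8 and 4.8 to 8.81, and nearly all of it was Cd8b1, since Cd8a stayed at or below 0.394. The 6 myeloid markers summed to at most 0.167 and the 2 NK-cell markers to at most 0.0122 RPKM, with Ncr1 at 0 in every sample. The part of these differences between the groups in the results below was not tested.

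In the vehicle, the subunit genes spanned a wide range of levels. Ndufa6, an accessory subunit of the peripheral arm, had the highest median over the 6 DMSO samples (338.0 RPKM), followed by the membrane-arm subunit Ndufb11 (197.0), Ndufa3 (127.0) and Ndufv3 (105.0). The DMSO ranges of these 4 genes did not overlap, apart from those of Ndufa3 (113.0 to 135.0) and Ndufv3 (85.9 to 114.0). The lowest complex I subunits were Ndufa11 (10.8) and the core subunit Ndufs1 (14.7). Ndufaf genes had DMSO medians from 1.11 for Ndufaf4 to 14.6 for Ndufaf3, and all but that of Ndufaf3 were below Ndufa11. Ndufa4l2, which low oxygen is known to induce, stayed between 0 and 0.128 RPKM in the 18 samples and was the 1 gene that failed the filter of 0.5 RPKM in 2 samples, so 37 subunit genes and all 7 Ndufaf genes were tested. The 7 subunits encoded by mitochondrial DNA (ND1 to ND6 and ND4L) were listed at 0 in all libraries, and with them the pumping core of the enzyme is outside these data.

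Summed over the 38 subunit genes, the level was 2334 to 2526 RPKM in DMSO samples, 2336 to 2844 with Arg C and 2301 to 2697 with linezolid, so the groups overlapped. Summed over the Ndufaf genes, it was 37.2 to 49.0, 32.5 to 44.4 and 39.3 to 47.9 RPKM. In bulk samples, fewer cells that express a gene and less RNA of it per cell cannot be told apart.

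Arg C against DMSO over all cycles asked how the drug affects these genes at a matched number of divisions. Of 37 subunit genes, 13 rose and 12 fell on the RPKM scale (limma, Benjamini-Hochberg adjusted p under 0.05 over 11004 genes), with a median log2 fold change of 0.05 and a range of -0.77 to 0.65. Over all genes tested, 16.5% were called higher and 70.0% lower, with a median of -0.47. Of the 7 Ndufaf genes, 3 rose and 3 fell, with a median of 0.04 and a range of -1.32 to 0.56. In all, 38 of the 44 tested members lay above the median of all genes.

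The direction of these counts depended on how the samples were scaled. The share of gene reads in ribosomal-protein genes moved with the drug, at 15.3 to 16.8% in DMSO libraries, 24.8 to 28.4% with Arg C and 18.6 to 24.6% with linezolid, and RPKM values of other genes are relative to the total that holds them. With ribosomal-protein and mitochondrial genes left out of the totals, Arg C gave 28 Nduf genes higher and 7 lower, against 16 and 15. When each sample was divided by the median ratio of its genes to their geometric means over the samples (median-ratio scaling), the median of all genes was 0.00, with 41.4% called higher and 41.9% lower. On that scale 34 of 37 subunit genes were called higher and 0 lower, with a median of 0.69, and 3 without a call were Ndufb2, Ndufc1 and Ndufv3. The Ndufaf genes split on both scales, with 5 called higher and 2 lower (Ndufaf1 and Ndufaf7) after median-ratio scaling. Calls were fewer when the cycles were averaged to 2 samples per drug, with 13 Nduf genes higher and 9 lower against 16 and 15.

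**Figure D1:**
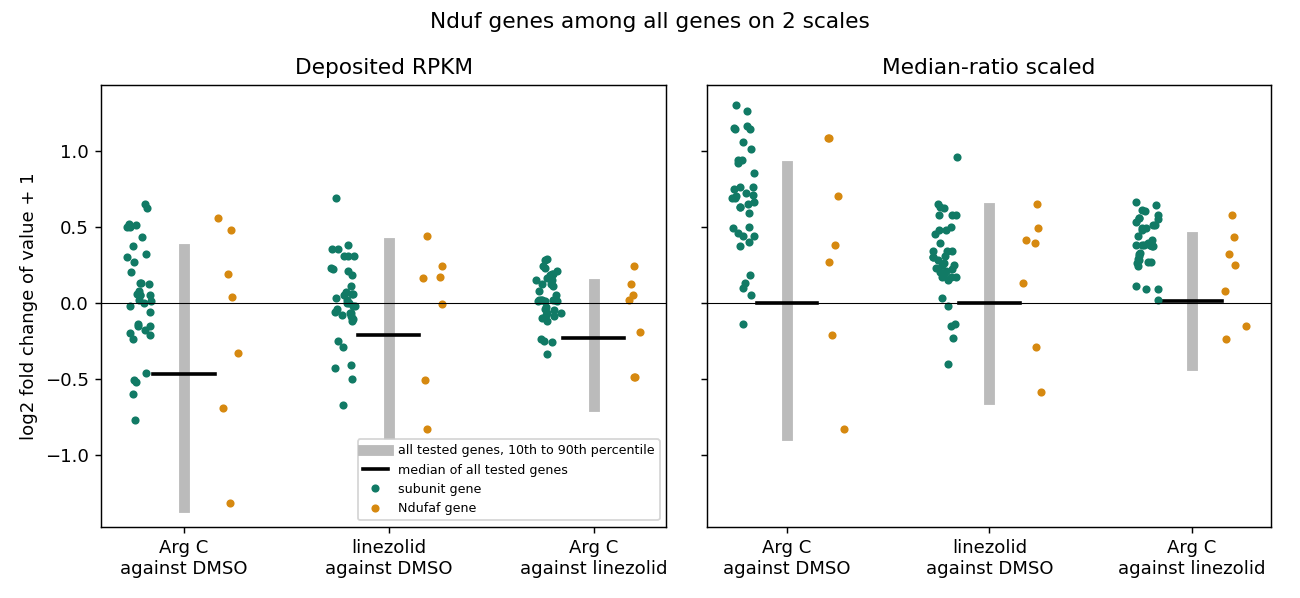
Log2 fold changes of the tested Nduf genes in the 3 drug comparisons, on the deposited RPKM (left) and after median-ratio scaling (right); green points are 37 subunit genes, orange points 7 Ndufaf genes, grey bars the 10th to 90th percentile and black lines the median of all 11004 tested genes. For Arg C against DMSO the subunit genes have a median of 0.05 on the left and 0.69 on the right, while the median of all genes is -0.47 on the left and 0.00 on the right.

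With linezolid, 12 subunit genes rose and 7 fell on the RPKM scale, with a median of 0.00 and a range of -0.67 to 0.69, where 21.0% of all genes were called higher and 54.5% lower with a median of -0.21. Of the Ndufaf genes 3 rose and 2 fell, with a median of 0.16. After median-ratio scaling, 29 subunit genes were called higher and 3 lower (Ndufa8, Ndufb2 and Ndufv3), with a median of 0.28, against 36.9% of all genes higher and 37.1% lower. The Ndufaf genes then had 4 calls higher and 2 lower, the latter again Ndufaf1 and Ndufaf7. Both drugs were compared with the same DMSO samples, so their values are given side by side and their likeness is not counted as a result. With 6 against 6 samples, 8 members had all Arg C values above all DMSO values and 6 had them all below, against 7.65% and 55.1% of all tested genes. For linezolid it was 5 above and 5 below, against 9.19% and 32.8%.

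**Figure D2:**
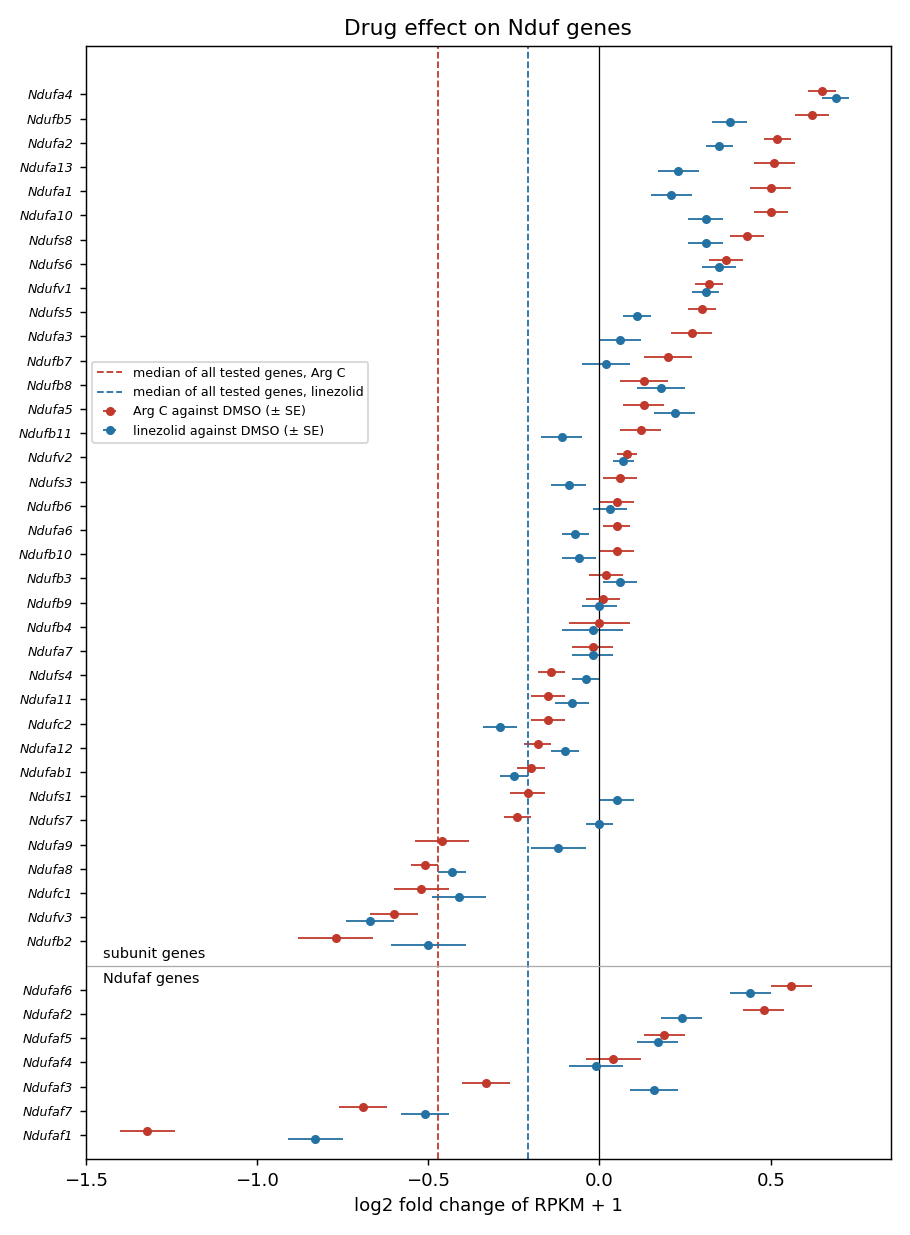
Log2 fold change (± SE from limma, on RPKM + 1) with Arg C (red) and linezolid (blue) against DMSO for 36 of the 37 tested subunit genes above and 7 Ndufaf genes below; dashed lines are the medians of all tested genes. With Arg C, Ndufaf1 is lowest at -1.32 and Ndufa4 highest at 0.65; values between 0 and the dashed lines turn positive for most subunit genes after median-ratio scaling.

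Among the assembly factors, Ndufaf1, which helps to build the membrane arm, had the lowest fold change of all members. Its level was 5.5, 6.3 and 7.96 RPKM (lowest, median and highest of 6) in DMSO samples, 1.61, 1.97 and 2.48 with Arg C and 2.73, 3.16 and 3.71 with linezolid. The 3 groups did not overlap. On the log2(RPKM + 1) scale it fell by 1.32 ± 0.08 (SE, adjusted p = 1.02e-08) with Arg C and by 0.83 ± 0.08 (1.58e-06) with linezolid, and it was called lower after median-ratio scaling too (-0.83 and -0.59). It was the 1 Ndufaf gene lower with Arg C than with linezolid on both scales (-0.49, adjusted p = 0.000224, and -0.24).

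Ndufaf7, a methyltransferase of the mitochondrial matrix, was the other factor that fell on both scales. Its 6 DMSO samples lay at 3.93, 4.15 and 4.32 RPKM, those with Arg C at 1.37, 2.31 and 3.15 and those with linezolid at 1.94, 2.67 and 3.25. All drug samples were below all DMSO samples, while the drugs overlapped. The falls were 0.69 ± 0.07 with Arg C and 0.51 ± 0.07 with linezolid, with -0.21 and -0.29 after median-ratio scaling.

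Ndufaf6, an early assembly factor, and Ndufaf2, which acts late and resembles Ndufa12, moved the other way. Ndufaf6 had 2.01, 3.36 and 3.96 RPKM in DMSO samples, 2.8, 5.68 and 8.4 with Arg C and 2.81, 4.76 and 7.37 with linezolid. Its ranges overlapped, because its level also rose with division, but it was higher in 6 of 6 pairs of the same cycle and experiment with either drug. The rises were 0.56 ± 0.06 and 0.44 ± 0.06 on the log2 scale. Ndufaf2 had 8.09, 8.87 and 11.3 RPKM in DMSO samples, 11.5, 13.0 and 15.3 with Arg C and 9.25, 10.7 and 13.4 with linezolid, rises of 0.48 and 0.24, each ± 0.06.

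Ndufaf5, which hydroxylates an arginine of Ndufs7, rose by 0.19 and 0.17, and its ranges overlapped (2.83 to 4.27, 2.64 to 5.55 and 2.53 to 5.21 RPKM). Its partner Ndufaf8 is listed under the older symbol 1810043H04Rik and so is no member by name. It was at -0.19 and -0.20, both called lower, and at 0.40 (called higher) and 0.05 after median-ratio scaling. Ndufaf3 and Ndufaf4 act together on the quinone module. Ndufaf3 fell with Arg C (-0.33 ± 0.07, adjusted p = 0.000546) but turned to 0.27 after median-ratio scaling, and with linezolid it was at 0.16 without a call and at 0.41 (adjusted p = 8.63e-05) after median-ratio scaling. Ndufaf4, with medians of 1.11, 1.11 and 1.2 RPKM, was not called with either drug in RPKM (0.04 and -0.01). After median-ratio scaling it was called higher with Arg C (0.38, adjusted p = 0.000287) and stood at 0.13 without a call with linezolid.

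The factors of complex I that are not named Nduf were counted from a list, in which 12 of the genes were matched and tested. With Arg C 0 rose and 10 fell, where 70.0% of all genes were called lower, and with linezolid 0 rose and 7 fell, where 54.5% were, so the share that fell with linezolid is near that of all genes. After median-ratio scaling the split was 5 higher and 4 lower with Arg C and 3 and 4 with linezolid. Acad9, Ecsit and Tmem126b are known partners of Ndufaf1 in the assembly complex of the membrane arm. Acad9 had 3.45, 4.01 and 4.4 RPKM in DMSO samples, 0.912, 1.22 and 1.48 with Arg C and 1.48, 2.38 and 2.79 with linezolid. Ecsit fell from a median of 11.8 RPKM to 5.89 and 6.91, and neither drug's samples overlapped with DMSO. Tmem126b fell from a median of 12.8 to 8.06 with Arg C, and stood at 11.9 with linezolid without a call. Their log2 changes with Arg C were -1.17, -0.97 and -0.68, and -0.73, -0.39 and -0.10 after median-ratio scaling, the last no longer called.

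Of the 7 core subunits encoded in the nucleus, 3 rose with Arg C (Ndufv1, Ndufv2 and Ndufs8) and 2 fell (Ndufs1 and Ndufs7). Of all genes, 16.5% were called higher and 70.0% lower. After median-ratio scaling 7 core subunits were called higher and 0 lower with Arg C, against 41.4% and 41.9% of all genes. With linezolid it was 6 and 0 on that scale, against 36.9% and 37.1%. Ndufv1, which holds the flavin that accepts electrons from NADH, had 18.5, 21.3 and 23.2 RPKM in DMSO samples, 21.4, 27.8 and 31.2 with Arg C and 23.1, 26.2 and 30.2 with linezolid. It rose by 0.32 and 0.31, each ± 0.04, and was higher in 6 of 6 pairs of the same cycle and experiment with either drug, although the ranges overlapped. Ndufs8, an iron-sulfur subunit near the quinone site, had 27.7 to 32.7 RPKM in DMSO samples, all below the 37.1 to 45.7 with Arg C and the 34.6 to 40.9 with linezolid. It rose by 0.43 and 0.31, each ± 0.05.

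Ndufs1, the largest iron-sulfur subunit, had 12.9, 14.7 and 15.5 RPKM in DMSO samples, 11.3, 12.4 and 13.5 with Arg C and 13.6, 15.0 and 16.5 with linezolid. It was called lower with Arg C than with DMSO (-0.21, adjusted p = 0.00145) and than with linezolid (-0.25), but stood at 0.40 and 0.09 after median-ratio scaling. Ndufs7 was at -0.24 with Arg C, called, and turned to 0.37. With linezolid its median was 19.1 RPKM against 19.2 with DMSO. Ndufs3, a subunit of the quinone module, was at 0.06 and -0.09 without a call, and at 0.71 (called) and 0.19 (not called) after median-ratio scaling. Ndufv2 had 0.08 with Arg C (adjusted p = 0.0354) and 0.07 with linezolid, the latter not called. After median-ratio scaling it stood at 0.72 and 0.34, both called. The RPKM call of Ndufv2 with Arg C was lost when any 1 of 8 samples was left out. These were 5 of DMSO (all but cycle 4 of experiment 1) and 3 of Arg C (cycle 2 of experiment 1 and cycles 3 and 4 of experiment 2).

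The accessory subunits of the peripheral arm, 9 genes, had 2 calls higher and 4 lower with Arg C, and those of the membrane arm, 19 genes, had 7 and 5, where 16.5% of all genes were called higher and 70.0% lower. With linezolid it was 3 and 2, and 6 and 4, against 21.0% and 54.5% of all genes. After median-ratio scaling it was 8 and 0, and 17 and 0, with Arg C (41.4% and 41.9% of all genes), and 8 and 1, and 14 and 2, with linezolid (36.9% and 37.1%). In the peripheral arm the extremes were Ndufa2, which rose by 0.52 ± 0.04, and Ndufv3, which fell by 0.60 ± 0.07. Ndufa2, a small subunit of the NADH module, had 59.5 to 70.6 RPKM in DMSO samples, 80.8 to 102.0 with Arg C and 76.2 to 85.8 with linezolid, with no overlap between drug and vehicle. Ndufv3, which sits beside the flavin subunit, had 85.9, 105.0 and 114.0 RPKM in DMSO samples, 53.0, 64.7 and 81.3 with Arg C and 55.0, 61.9 and 79.1 with linezolid, also without overlap. With linezolid Ndufv3 fell by 0.67 ± 0.07 and stayed lower after median-ratio scaling (-0.40). With Arg C it stood at 0.05 on that scale (adjusted p = 0.684).

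**Figure D3:**
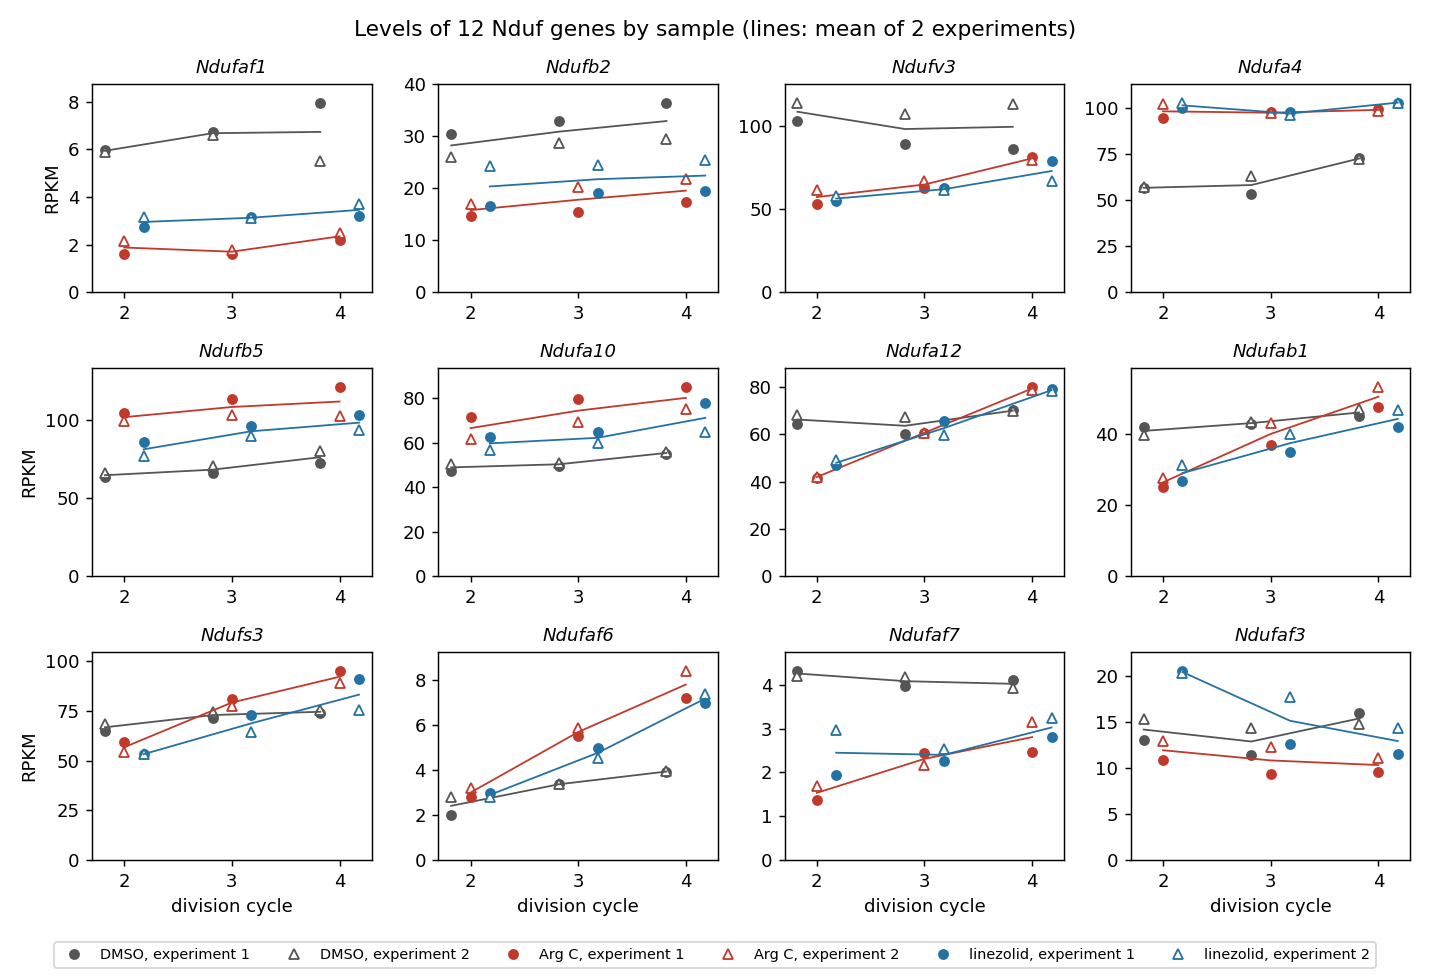
RPKM of 12 Nduf genes in each of the 18 samples against division cycle; colours are drugs, filled circles experiment 1, open triangles experiment 2, and lines join the means of the 2 experiments. In the top rows Ndufaf1, Ndufb2 and Ndufv3 lie lower with either drug than with DMSO in RPKM and Ndufa4, Ndufb5 and Ndufa10 higher at the same cycle; after median-ratio scaling Ndufv3 turns to 0.05 with Arg C. Ndufa12, Ndufab1 and Ndufs3 start below DMSO at cycle 2 with either drug in RPKM (after median-ratio scaling Ndufs3 is at 0.40 there with Arg C) and end near or above it at cycle 4.

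In the membrane arm, Ndufb2 was lowest. Its samples lay at 26.0, 29.9 and 36.5 RPKM with DMSO, 14.6, 17.2 and 21.7 with Arg C and 16.5, 21.8 and 25.5 with linezolid, so that each drug's range was below that of DMSO. It fell by 0.77 ± 0.11 with Arg C and by 0.50 ± 0.11 with linezolid, and stood at -0.14 without a call and at -0.23 with a call after median-ratio scaling. Ndufc1, a small membrane subunit, fell by 0.52 and 0.41, each ± 0.08, on the RPKM scale and stood at 0.10 and -0.14 without a call on the other scale. Ndufa8, which lies in the intermembrane space, fell from 66.7 to 74.7 RPKM to 41.3 to 56.4 with Arg C and 45.1 to 59.0 with linezolid. Its log2 changes of -0.51 and -0.43, each ± 0.04, became 0.13 and -0.15, both called, after median-ratio scaling.

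The membrane-arm genes that rose most were Ndufb5, Ndufa13, Ndufa1 and Ndufa10. Ndufb5 had 63.2, 68.0 and 79.7 RPKM in DMSO samples, 99.0, 103.0 and 121.0 with Arg C and 76.6, 91.1 and 103.0 with linezolid. With Arg C all samples were above all DMSO samples, and with linezolid the ranges overlapped slightly. It rose by 0.62 and 0.38, each ± 0.05. Ndufa13, also known as GRIM-19, rose by 0.51 and 0.23, Ndufa1, a small subunit needed early in assembly, by 0.50 and 0.21, and Ndufa10, a kinase-like subunit, by 0.50 and 0.31. All these rises were larger after median-ratio scaling (0.48 to 1.26).

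Ndufa4, the complex IV subunit, had the highest values of all members in both comparisons. It was at 53.3, 60.0 and 72.9 RPKM in DMSO samples, 94.5, 98.0 and 102.0 with Arg C and 96.4, 101.0 and 103.0 with linezolid. Every drug sample was above every DMSO sample, and the drugs overlapped almost completely. The rises were 0.65 and 0.69, each ± 0.04. Leaving out Ndufa4, which belongs to complex IV, 12 subunit genes rose and 12 fell with Arg C, and 11 rose and 7 fell with linezolid. Of all genes, 16.5% were called higher and 70.0% lower with Arg C, and 21.0% and 54.5% with linezolid. After median-ratio scaling the counts without Ndufa4 were 33 and 0 with Arg C (41.4% and 41.9% of all genes). With linezolid they were 28 and 3 (36.9% and 37.1%).

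Arg C against linezolid, at the 1 dose of each, gave 12 subunit genes higher and 5 lower with Arg C, with a median of 0.02, where 7.64% of all genes were higher and 59.8% lower with a median of -0.23. Of the Ndufaf genes 1 was higher and 3 lower. After median-ratio scaling 33 subunit genes were higher and 0 lower with a median of 0.38, against 32.6% and 29.2% of all genes, and 4 Ndufaf genes were higher and 1 lower. The highest were Ndufa1 (0.29 ± 0.06), Ndufa13 (0.28 ± 0.06), Ndufb5 (0.24 ± 0.05) and Ndufaf2 (0.24 ± 0.06). The lowest were Ndufaf3 and Ndufaf1 (-0.49 each), Ndufa9, which lies where the arms join (-0.34 ± 0.08), and Ndufb2 (-0.26 ± 0.11). On the other scale Ndufaf3, Ndufa9 and Ndufb2 stood at -0.15, 0.02 and 0.09 without a call. With the cycles averaged these counts were 2 and 2. The count of 8 lower members became 5 without cycle 2 or cycle 4 of Arg C in experiment 1 or without cycle 3 of linezolid in experiment 2.

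The subunit genes are short, and the log2 changes of all genes differed by gene length. The gene models of the 37 tested subunit genes ran from 349 to 2979 bp with a median of 750, those of the Ndufaf genes from 808 to 3632 bp with a median of 2332, and all tested genes had a median of 3286 bp. For Arg C, the median log2 change of all genes was 0.25 up to 600 bp, -0.06 from there to 1000 bp, -0.34 to 2000 bp, -0.51 to 4000 bp and -0.57 beyond. The subunit genes had medians of 0.17 (12 genes), 0.03 (10 genes), 0.03 (12 genes) and -0.15 (3 genes) in the first 4 ranges. Up to 600 bp their median was thus below that of all genes of this length, and above it in the other 3 ranges. Whether length accounts for the counts above was not tested.

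**Figure D4:**
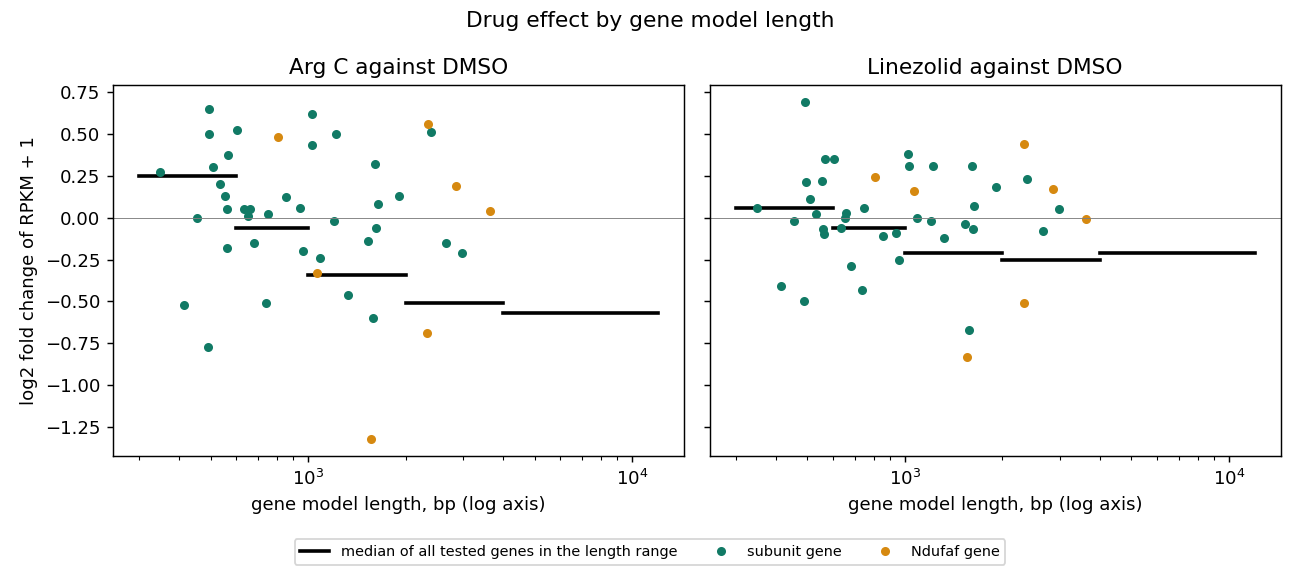
Log2 fold change (RPKM + 1) of the tested Nduf genes against gene model length on a log axis, for Arg C (left) and linezolid (right) against DMSO; black lines are the medians of all tested genes in 5 length ranges. For Arg C these medians run from 0.25 in the shortest range to -0.57 in the longest, and for linezolid from 0.06 to -0.21.

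For linezolid the medians of all genes were 0.06, -0.06, -0.21, -0.25 and -0.21 over the same ranges, and those of the subunit genes 0.04, -0.07, 0.03 and 0.05. Some members of nearly the same length had unlike values, which is no test of the part that length has in the counts. Ndufa4 (492 bp), Ndufb2 (489 bp) and Ndufa1 (494 bp) had 0.65, -0.77 and 0.50 with Arg C, and Ndufaf6 (2337 bp) and Ndufaf7 (2332 bp) had 0.56 and -0.69.

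At single cycles the counts of subunit genes differed. At cycle 2, 9 rose and 11 fell with Arg C, where 12.9% of all genes were called higher and 62.7% lower. At cycle 3 it was 12 and 7 (14.1% and 63.0% of all genes), and at cycle 4 it was 15 and 6 (11.7% and 63.5%). The medians were -0.04, 0.10 and 0.13, while that of all genes stayed at -0.47 or -0.48. With linezolid it was 7 and 7 at cycle 2 (15.7% and 37.1%), 9 and 6 at cycle 3 (15.4% and 46.0%) and 10 and 5 at cycle 4 (14.0% and 44.3%). After median-ratio scaling, Arg C gave 30, 33 and 34 subunit genes higher and 0 lower at cycles 2, 3 and 4. Of all 11004 genes, 3749, 3907 and 3797 were then called higher and 3885, 3992 and 3884 lower. Linezolid gave 15, 23 and 25 subunit genes higher and 3, 0 and 0 lower, against 2741, 3158 and 3033 of all genes higher and 2854, 3241 and 3199 lower.

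Within a drug, cycle 4 was compared with cycle 2 to see how the genes change with division. In DMSO cells 3 members rose and 0 fell, where 4.45% of all genes were called higher and 3.22% lower. They were Ndufaf6 (0.54 ± 0.11, adjusted p = 0.0127), Ndufaf5 (0.38 ± 0.11) and Ndufa4 (0.35 ± 0.07). With cycle 2 or cycle 4 of DMSO in experiment 1 left out 0 members were called, and without cycle 2 of experiment 2 it was 1. In Arg C cells 23 members rose and 0 fell, 19 subunit genes and 4 Ndufaf genes, against 18.3% and 13.7% of all genes. In linezolid cells 15 rose, 11 of them subunit genes, and Ndufaf3 fell, against 15.0% and 17.9% of all genes.

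The medians of the subunit genes were 0.13 in DMSO, 0.26 in Arg C and 0.19 in linezolid cells, where those of all genes were 0.03, 0.00 and -0.05. The peripheral arm had 7 of 9 accessory genes called higher in Arg C cells and the membrane arm 7 of 19, against 18.3% of all genes. After median-ratio scaling it was 6 of 9 and 6 of 19. The counts depended on single samples. With Arg C, 11 members were called higher without cycle 2 of experiment 1, and 14 without cycle 4 of experiment 1 or of experiment 2. With linezolid, 7 were called higher without cycle 2 of experiment 1 and 6 without cycle 4 of experiment 1. Median-ratio scaling gave 19 of 44 members called higher with Arg C and 17 with linezolid, and 1 with DMSO, Ndufaf6. Of all 11004 genes, 2083 were called higher on that scale with Arg C, 1871 with linezolid and 311 with DMSO.

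**Figure D5:**
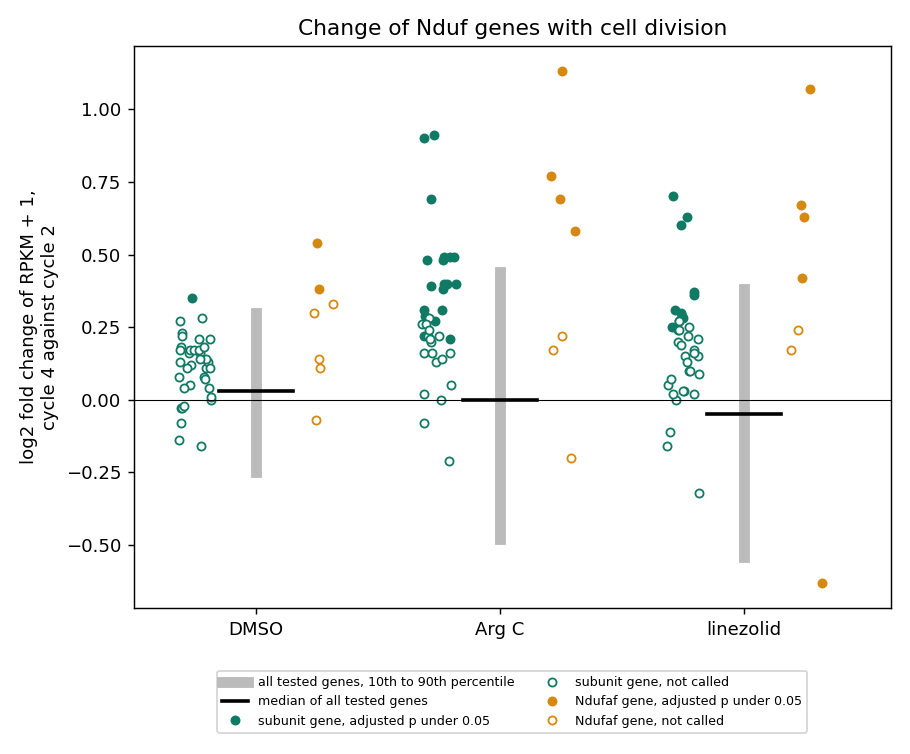
Log2 fold change (RPKM + 1) from cycle 2 to cycle 4 in each drug for the tested Nduf genes; filled points had a limma adjusted p under 0.05, grey bars are the 10th to 90th percentile and black lines the median of all tested genes. Filled points number 3 in DMSO, 23 in Arg C and 16 in linezolid, and 1 of them, Ndufaf3 in linezolid at -0.63, lies below 0.

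The largest rises among members whose mean reached 5 RPKM were those of Ndufab1 (0.91 ± 0.08) and Ndufa12 (0.90 ± 0.07) in Arg C cells. Ndufab1 is the mitochondrial acyl carrier protein, which also serves lipoic acid synthesis. Its levels in cycles 2, 3 and 4 were 42.1, 42.9 and 45.3 RPKM in DMSO experiment 1 and 39.9, 43.5 and 47.1 in experiment 2. With Arg C they were 25.3, 37.1 and 47.8 and then 27.7, 43.2 and 53.5, and with linezolid 26.8, 35.1 and 42.0 and then 31.4, 40.0 and 46.8. At cycle 2 all drug samples were thus below all DMSO samples, and at cycle 4 both Arg C samples were above.

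Ndufa12, an accessory subunit that takes the place of Ndufaf2 at the end of assembly, also began low with the drugs. In experiments 1 and 2 it went from 41.7 and 42.1 RPKM at cycle 2 through 60.7 and 60.5 to 80.1 and 78.5 at cycle 4 with Arg C. With linezolid it went from 46.8 and 49.0 through 65.6 and 59.5 to 78.9 and 78.3. In DMSO cells it stayed between 60.0 and 70.3. The core subunit Ndufs3 went from 59.2 and 54.3 to 95.2 and 89.1 RPKM with Arg C and from 53.3 and 53.2 to 90.8 and 75.5 with linezolid, and lay between 65.1 and 75.2 in DMSO samples. In RPKM these 3 genes began below the vehicle of the same experiment and ended above it, with the exception of Ndufab1 with linezolid in experiment 1 (42.0 against 45.3) and in experiment 2 (46.8 against 47.1). At cycle 2 their Arg C effects were -0.65, -0.61 and -0.23 for Ndufa12, Ndufab1 and Ndufs3, all called, and at cycle 4 they were 0.18 (called), 0.13 (not called) and 0.30 (called). After median-ratio scaling the cycle 2 values were -0.02, 0.01 and 0.40, of which the last was called higher, and the cycle 4 values 0.82, 0.77 and 0.95.

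Tested as an interaction, the Arg C effect at cycle 4 exceeded that at cycle 2 in 6 members and fell below it in 0, where 7.92% of all genes had a call in either direction. The difference was 0.82 ± 0.10 for Ndufa12 (adjusted p = 0.00173), 0.74 ± 0.11 for Ndufab1 (0.00412), 0.59 ± 0.16 for Ndufaf6 (0.0395) and 0.53 ± 0.12 for Ndufs3 (0.0164), with Ndufv3 and Ndufaf7 as the other 2. With linezolid, where 5.39% of all genes had a call, it was 0.62 ± 0.10 for Ndufa12 (0.00855), 0.47 ± 0.12 for Ndufs3 (0.0379) and 0.43 ± 0.11 for Ndufab1 (0.0447), and -0.74 ± 0.17 for Ndufaf3 (0.0291). After median-ratio scaling the calls of Ndufs3 (adjusted p = 0.11 with Arg C and 0.118 with linezolid) and of Ndufv3 with Arg C (0.132) were lost. The calls of Ndufa12 with either drug and of Ndufab1 with Arg C remained when any 1 of the 18 samples was left out. The calls of Ndufs3 with Arg C and of Ndufaf3 were lost in 5 of these 18 fits each, those of Ndufs3 with linezolid in 12, of Ndufaf6 in 13 and of Ndufab1 with linezolid in 17. Leaving out cycle 2 or 4 of Arg C in experiment 1, cycle 2 of Arg C in experiment 2, cycle 4 of DMSO in experiment 1 or cycle 2 of DMSO in experiment 2 brought the Arg C count from 6 to 2, and 5 other samples (cycle 3 of Arg C and of linezolid in both experiments, and cycle 4 of Arg C in experiment 2) brought it to 3. For linezolid, 11 of the 18 samples brought the count from 3 to 1: all 6 of Arg C, cycles 2 and 4 of DMSO and of linezolid in experiment 1, and cycle 2 of linezolid in experiment 2.

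Ndufaf3 had an opposite course. With linezolid it went from 20.6 RPKM at cycle 2 through 12.6 to 11.5 at cycle 4 in experiment 1 and from 20.3 through 17.7 to 14.4 in experiment 2. With DMSO it lay between 11.4 and 16.0 and with Arg C between 9.39 and 13.0. Its fall with division in linezolid cells was 0.63 ± 0.12 (adjusted p = 0.0022). Linezolid was above DMSO at cycle 2 in both experiments (0.50, called) and below it at cycle 4 (-0.24, not called, and 0.04 after median-ratio scaling). Ndufaf6 rose with division in all 3 groups, from 2.01 and 2.81 RPKM to 3.9 and 3.96 with DMSO, from 2.8 and 3.2 to 7.17 and 8.4 with Arg C and from 2.98 and 2.81 to 6.96 and 7.37 with linezolid. Ndufa6, the most abundant subunit transcript, had -0.16, -0.21 and -0.11 from cycle 2 to cycle 4 without a call.

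The 2 experiments, which were also run on different lanes, so that lane and experiment cannot be told apart, gave partly different drug effects. The spread in this test came from sorted fractions of a drug within an experiment, which are not independent cultures. Its p-values can therefore be too small. For Arg C 10 members had a called difference between experiments, 8 of them higher in experiment 2, where 35.7% of all genes had one. For linezolid it was 13, 5 higher and 8 lower, where 44.3% had one. After median-ratio scaling it was 15, 14 of them lower (30.4% of all genes), and 20, 19 of them lower (36.9%), so the split turned with the scaling. Ndufb2 with Arg C was at -1.03 in experiment 1 and -0.50 in experiment 2, and with linezolid at -0.83 and -0.17. The difference of 0.53 with Arg C was called on both scales (0.31 after median-ratio scaling). Ndufa9 was at -0.69 and -0.22 with Arg C, with a difference of 0.47 that was not called on the other scale (0.24). Ndufa4 had 0.68 and 0.63 with Arg C and 0.73 and 0.65 with linezolid, with no called difference in RPKM, but the differences of -0.29 (adjusted p = 0.0162) and -0.32 (0.00826) after median-ratio scaling were called.

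Complex I genes are known targets of nuclear regulators of respiration. Of 9 such genes 7 were tested. With Arg C, Yy1 rose (0.31), 5 fell, namely Pprc1 (-1.53), Esrra (-1.07), Tfam (-1.0), Gabpa (-0.86) and Gabpb1 (-0.78), and Nrf1 was at -0.02 without a call. With linezolid, Yy1 (0.38) and Nrf1 (0.21) rose and 4 fell. In RPKM, 70.0% of all genes were called lower with Arg C and 54.5% with linezolid, so the shares of regulators that fell are near those of all genes on this scale. The 5 falls with Arg C remained called after median-ratio scaling, where 41.9% of all genes were called lower and Nrf1 turned to 0.47. With linezolid 4 of the 7 were called lower on that scale, against 37.1% of all genes. Pprc1, a coactivator of nuclear genes of mitochondria, had 4.65 to 6.01 RPKM in DMSO samples, 0.694 to 1.74 with Arg C and 1.33 to 2.85 with linezolid. Its relatives Ppargc1a and Ppargc1b were at most at 0.0231 and 0.384 RPKM and were not tested.

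Promoter windows from 250 bases before to 50 after the transcript start were found in RefSeq (GRCm38.p6) for 39 members and searched on both strands for 5 short motifs. The NRF1 motif GCGCNTGCG was in 28.2% of members (11 of 39), in 16.6% of all tested genes with a window and in 7.12% of all genes with one. Its 2 strands overlap, so a match on both counted once. The YY1 motif AAGATGGCG was in 5 members against 4.0% of tested genes, from 22 to 35 bases after the start. The ETS/GABP motif CCGGAAGT was in 1 member, Ndufs3, at the start itself, against 10.1% of tested genes. The ERR motif TCAAGGTCA and the HIF motif TACGTG were in 0 of 39, against 0.38% and 4.74% of tested genes. No overlap between different motifs was found in the members.

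Members with the NRF1 or the YY1 motif moved in both directions. Of 11 members with the NRF1 motif 3 rose and 3 fell with Arg C (median 0.05), and of 28 without it 11 rose and 11 fell (median 0.06). With linezolid it was 4 and 2 with the motif and 9 and 7 without it. Of the 5 with the YY1 motif, 1 rose (Ndufs6) and 4 fell (Ndufa9, Ndufc1, Ndufs4 and Ndufs7) with Arg C, where 70.0% of all genes were called lower, and all 5 had positive values after median-ratio scaling (0.10 to 1.01). With linezolid Ndufs6 rose, Ndufc1 fell and 3 were not called. The 130 bases before the start of 4 members with the NRF1 motif are printed. Ndufs5 and Ndufs6 rose with both drugs, and Ndufa8 and Ndufa12 fell with both in RPKM over all cycles. Ndufa12 was lower than DMSO in only 3 of 6 pairs of the same cycle and experiment with either drug. It was at -0.65 with Arg C and -0.46 with linezolid at cycle 2, and at 0.18 and 0.17 at cycle 4. After median-ratio scaling Ndufa8 stood at 0.13 with Arg C and -0.15 with linezolid, and Ndufa12 at 0.46 and 0.17. They were chosen after their values were seen, to show the same letters before genes that moved apart. Capitals mark the NRF1 motif on either strand, and each sequence runs 5′ to 3′ along its gene.
Ndufs5 (chr4:123718187-123718316, minus strand): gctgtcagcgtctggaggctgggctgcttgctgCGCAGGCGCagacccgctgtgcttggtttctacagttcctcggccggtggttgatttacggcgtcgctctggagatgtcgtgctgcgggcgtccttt
Ndufs6 (chr13:73328483-73328612, minus strand): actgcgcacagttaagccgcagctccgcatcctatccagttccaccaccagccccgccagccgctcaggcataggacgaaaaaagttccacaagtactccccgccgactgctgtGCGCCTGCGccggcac
Ndufa8 (chr2:36049339-36049468, minus strand): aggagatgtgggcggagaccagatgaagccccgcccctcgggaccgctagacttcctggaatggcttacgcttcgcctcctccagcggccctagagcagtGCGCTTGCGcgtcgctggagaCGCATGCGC
Ndufa12 (chr10:94198905-94199034, plus strand): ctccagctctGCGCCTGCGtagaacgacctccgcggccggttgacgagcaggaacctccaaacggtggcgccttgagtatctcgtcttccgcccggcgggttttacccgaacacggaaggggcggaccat

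Ndufs6, a zinc-binding subunit of the NADH module, had 43.9 to 51.8 RPKM in DMSO samples and 51.4 to 70.0 with Arg C, and rose by 0.37 and 0.35. Ndufs5, a membrane-arm subunit, had 53.8 to 69.0 RPKM in DMSO samples and 65.5 to 80.6 with Arg C, and rose by 0.30 and 0.11. With Arg C the ranges overlapped with DMSO for both. With linezolid Ndufs6 had 54.9 to 66.4 RPKM, all above DMSO, and Ndufs5 had 61.2 to 68.9, which overlapped. Their NRF1 motifs begin 16 and 97 bases before the start. In Ndufa8 motifs begin 30 and 9 bases before it, and in Ndufa12 the motif begins 120 bases before it. A match is a description of letters, and no binding was measured.

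Over the 18 samples, the mean profile of the 37 subunit genes (centred log2 values) was most like those of Cox7b, a complex IV subunit (Pearson r = 0.946), Fam92a (0.936) and Fam96b (0.929), among 5953 other genes whose mean reached 5 RPKM. The points share drugs, cycles and libraries, so these values are descriptions.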

How the data were processed

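The 45 Nduf genes, the lists and the motifs were chosen with earlier results of these data known. The authors deposited 1 table of RPKM values; per the submitters' processing notes CASAVA and GRCm38.p5 were used, while for aligner, counter, annotation and strand the value is "not given in the sources used here". Without strand, reads of overlapping antisense genes cannot be told apart. The unit was settled from the values: whole reads were recovered for 19282 of 19284 genes with any value (tolerance 0.0001 reads), and 88 of 95 single-exon genes had their annotated length. Technical replicates differed little beyond counting error (chi-square per degree of freedom 1.041 to 1.115) and were averaged. Values of the 18 samples as log2(RPKM + 1) went into limma 3.58.1 (R 4.3.3) with a mean-variance trend, for genes with 0.5 RPKM in 2 samples, with 1 coefficient for each drug at each cycle, blocked by experiment, 8 residual degrees of freedom (6 for drug by experiment). This scale understates changes of low genes. Adjusted p-values are Benjamini-Hochberg within each comparison, and each drug against DMSO at a single cycle is a comparison of its own. The labels say that a number marks a shared experiment (deviations of samples sharing it correlated with a median of 0.32, lowest -0.07). Named genes were all Ndufaf genes, Ndufa4, Ndufa4l2, the core subunits and, at a mean of 5 RPKM or more, the 4 highest and 4 lowest per drug comparison, the 2 highest and 2 lowest per cycle comparison and up to 4 called interactions each; Ndufa11, Ndufa3, Ndufb11, Ndufs4 and Ndufs5 were added after their values were seen. Some genes are not reported here. The fit was tested on simulated data. Alternatives were 3 other scalings, another pseudocount (0.1), limma without trend, limma-voom on recovered reads, 2 other filters, no block, 54 libraries, averaged cycles, each experiment alone, the compared groups alone, and technical replicates or samples left out.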

Additional observations from a re-analysis of the deposited data

Results flagged for a closer look

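The drug effect at cycle 4 differed from that at cycle 2 by a test of the difference itself (limma interaction, log2(RPKM + 1)). With Arg C the difference was 0.82 for Ndufa12 (adjusted p = 0.00173), 0.74 for Ndufab1 (0.00412), 0.53 for Ndufs3 (0.0164) and 0.59 for Ndufaf6 (0.0395). With linezolid it was 0.62 for Ndufa12 (0.00855), 0.47 for Ndufs3 (0.0379), 0.43 for Ndufab1 (0.0447) and -0.74 for Ndufaf3 (0.0291). The Arg C values of Ndufa12 and Ndufab1 stayed called with each of 18 samples left out (adjusted p from 0.00155 to 0.0176 and from 0.00319 to 0.0272) and in 10 other alternatives each. Of these 10 alternatives, the call was lost in 2 for Ndufs3 and 4 for Ndufaf6 with Arg C, and in 1 for Ndufa12, 3 for Ndufaf3, 6 for Ndufs3 and 4 for Ndufab1 with linezolid.

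The drug effect also differed between the 2 experiments (limma interaction). The spread in this test came from sorted fractions that are not independent cultures, so its p-values can be too small. For Arg C the effect in experiment 2 minus that in experiment 1 was 0.53 for Ndufb2 (adjusted p = 0.000512), 0.47 for Ndufa9 (0.0017), 0.38 for Ndufb8 (0.00337) and -0.24 for Ndufa10 (0.00637). For linezolid it was 0.66 for Ndufb2 (0.000246), 0.50 for Ndufb4 (0.00219), 0.27 for Ndufc2 (0.00561) and 0.33 for Ndufa9 (0.00675). After median-ratio scaling the calls remained for Ndufb2 with both drugs and for Ndufa10.

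Single samples stood apart from the other 5 of their drug by Dixon's criterion in 2 of 93 groups, where chance gives about 1 in 20. Ndufa13 was at 51.9 RPKM in the linezolid cycle 4 sample of experiment 1 (nearest other sample 42.7). Ndufc1 was at 27.5 in the linezolid cycle 2 sample of experiment 2 (nearest 21.4).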

How the results depend on the processing

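With 16 Nduf genes called higher and 15 lower for Arg C against DMSO, 15 and 9 for linezolid and 13 and 8 for Arg C against linezolid, median-ratio scaling gave 39 and 2, 33 and 5, and 37 and 1. Upper-quartile scaling gave 36 and 3 for Arg C, 26 higher for linezolid and 36 and 2 for Arg C against linezolid. Leaving out ribosomal-protein and mitochondrial genes gave 28 and 7, and 25 and 5 for Arg C against linezolid. Both of the first scalings left 1 member higher with division in DMSO. Between experiments, median-ratio scaling gave 1 higher and 14 lower with Arg C and 1 and 19 with linezolid.

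Signs were compared for the genes named by rule and for the tested factors and regulators, without Dmac1 (listed as Tmem261) and Dmac2 (Atp5sl). Among compared values called in the main fit or in the alternative, signs turned only under these scalings. Values called in neither were not counted as turned. Genes outside this comparison turned too. With median-ratio scaling, Arg C values of Ndufa11, Ndufs4, Dmac1 and Dmac2 went from -0.15, -0.14, -0.12 and -0.59 to 0.44, 0.49, 0.50 and 0.03. The lists below hold compared genes only. With median-ratio scaling, Arg C values against DMSO became Foxred1 0.27, Lyrm2 0.12, Ndufa12 0.46, Ndufa8 0.13, Ndufa9 0.18, Ndufab1 0.44, Ndufaf3 0.27, Ndufaf8 0.40, Ndufb4 0.63, Ndufc1 0.10, Ndufc2 0.50, Ndufs1 0.40, Ndufs7 0.37, Ndufv3 0.05, Nrf1 0.47, Nubpl 0.42, Tmem126a 0.24 and Tmem70 0.29. Linezolid values became Foxred1 0.20, Ndufa12 0.17, Ndufa6 0.21, Ndufa9 0.15, Ndufab1 0.03, Ndufaf8 0.05, Ndufb4 0.25 and Ndufs7 0.26, and Arg C against linezolid Ndufa9 0.02, Ndufb2 0.09 and Ndufs1 0.09. With upper-quartile scaling, Arg C values became Foxred1 0.12, Ndufa12 0.28, Ndufab1 0.26, Ndufaf3 0.10, Ndufaf8 0.23, Ndufb4 0.45, Ndufc2 0.32, Ndufs1 0.23, Ndufs7 0.20, Nrf1 0.33, Nubpl 0.29, Tmem126a 0.07 and Tmem70 0.11, linezolid values Ndufa12 0.05 and Ndufs7 0.15, and Arg C against linezolid Ndufb2 0.03 and Ndufs1 0.03. Without ribosomal-protein and mitochondrial genes, Arg C values became Ndufa12 0.05, Ndufab1 0.03, Ndufaf8 0.02, Ndufb4 0.22, Ndufc2 0.08, Ndufs1 0.01 and Nrf1 0.15.

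The experiment was the block in the fit. With no replicate block, Arg C against linezolid had 5 members lower, 2 had a higher Arg C effect at cycle 4 than at cycle 2, and 0 had a called linezolid difference in either direction (against 3 and 1). With the 54 libraries and a replicate block, linezolid gave 15 lower, division gave 21 and 1 in DMSO, 36 and 2 in Arg C and 28 and 3 in linezolid cells, and the differences by cycle were 21 and 3 for Arg C and 12 and 3 for linezolid; technical replicates are not independent. With cycles averaged, 9 were lower with Arg C, 8 higher with linezolid, and 2 higher and 2 lower with Arg C than with linezolid. Experiment 2 alone gave 9 lower with Arg C, and experiment 1 alone 6 and 5 for Arg C against linezolid. Fitting only the groups compared gave 8 higher with division in DMSO and 2 lower in linezolid cells. A pseudocount of 0.1 gave 1 member lower with division in Arg C cells, and so did the filter of 1 RPKM in 9 samples, which also gave 1 lower Arg C difference by cycle. For the linezolid difference by cycle, limma without trend gave 1 higher, limma-voom on recovered reads 1 and 0, and no filter 1 and 0. In each case the cause was not tested. Single experiments were not run for the division comparisons, and the comparisons between experiments were run only under median-ratio scaling.

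Leaving out samples or technical replicates gave 14 to 17 higher and 13 to 15 lower for Arg C, 12 to 16 and 8 to 13 for linezolid and 10 to 14 and 5 to 8 for Arg C against linezolid. With division it gave 0 to 3 higher and 0 lower in DMSO, 11 to 25 and 0 to 1 in Arg C and 6 to 16 and 1 in linezolid cells, and by cycle 2 to 6 and 0 to 1 for Arg C and 1 to 4 and 0 to 2 for linezolid. Of values on named genes, 2509 kept their call or their lack of one, 110 lost a call and 27 gained one. Among values called in either fit, 0 turned sign, and sign changes of values called in neither were not counted. The pseudocount of 1 is near the level of Ndufaf4, which had 54 to 232 recovered reads per sample.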
